A study of Sus scrofa with 4 samples.

Results

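The 9 genes described here, MDM2, CCNG1, ZMAT3, GADD45A, GADD45B, PLK2, PLK3, BTG2 and SESN1, are stress-response genes, switched on in many cell types by DNA damage and other stress. They were taken by symbol from the 35670 genes of the deposited count files, without a rule on measured values, and all 9 passed the filter on low counts, as did 14617 genes in all. RNA had been sequenced from porcine fetal fibroblasts (PFFs; tissue label skin), the cells whose nuclei are transferred in pig cloning, after serum starvation. The comparison has 2 groups of 2 libraries. Controls have the genotype WT and are titled pTK-642, and the others have the genotype BRG1-overexpressed and are titled pTK-642-BRG1. BRG1 is the ATPase of the BAF chromatin remodelling complex and is encoded by SMARCA4. Serum starvation and the name pTK-642 are common to both groups, and the labels explain neither that name nor whether controls carry a vector. They also do not say whether libraries of a group came from separate cultures or how the BRG1 cells were derived. The p-values therefore measure the spread between these libraries alone, which may be technical.

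DNA damage and other stress switch on genes that halt the cell cycle, repair DNA, restrain growth signalling or lead to cell death, and also MDM2, whose product, a ubiquitin ligase, limits the response by feedback. Several of these genes are also switched on by other routes: PLK2, PLK3, BTG2 and GADD45B respond rapidly to growth factors, and GADD45A and GADD45B to cytokines and metabolic stress.

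Gene counts summed to between 34486400 and 38126860 reads per library, of which the 9 genes together took 24592 and 20879 in the controls and 29924 and 28040 in the BRG1-labelled libraries. SMARCA4 itself did not pass the test used throughout, edgeR's quasi-likelihood F test with Benjamini-Hochberg adjustment (log2 fold change -0.04 ± 0.10, SE, adjusted p = 0.765), so this gene does not check the label. Its value was 0.18 with scaling by library size alone, 0.06 with upper quartile scaling and 0.05 without control 2, and it passed as lower without control 1 (-0.15) and once a trend of each library on gene span was taken out (-0.25). Fibroblast markers summed to 24700 to 28100 CPM (reads scaled by library size) in controls and 35300 to 35400 in the other group, while KRT5 and KRT1 of keratinocytes, PTPRC and LYZ of immune cells and ADIPOQ and FABP4 of adipocytes had 0 reads in all 4 libraries. The summed level of 5 endothelial markers was 4.42 to 5.08 CPM in controls and 7.34 to 8.04 in the BRG1-labelled libraries, and those of 4 smooth muscle and pericyte markers 6.07 to 6.83 and 24.1 to 26.2. For 4 adipocyte markers the sums were 1.37 to 1.81 and 5.76 to 8.89 CPM, and for 5 immune markers 1.43 to 2.99 and 2.93 to 4.30. For 6 keratinocyte markers they were 2.83 to 3.14 and 2.65 to 3.61, and for 5 melanocyte markers 0.498 to 0.571 and 0.0534 to 0.229. Single genes carried some of these sums: PECAM1 rose from a mean of 2.86 to 6.67 CPM while VWF had 1.75 and 0.717 and did not pass, CNN1 rose from 4.74 to 23.2 while the groups overlapped for MYH11 and DES, and LPL rose from 1.59 to 7.26. Fibroblast markers did not move together: COL1A1 rose from a mean of 4944 to 10190 CPM and COL1A2 from 4013 to 7768. PDGFRA, LUM and DCN passed as higher too. COL3A1, PDGFRB and VIM had log2 fold changes of -0.21, -0.22 and -0.27 and did not pass. The part of these cell types in the results was not tested. Reads that fell outside genes were 6.11% and 7.34% of all listed reads in controls and 10.3% and 10.5% in the BRG1-labelled libraries, and their part was not tested either. In such bulk RNA, fewer cells that express a gene and less of its RNA per cell cannot be told apart.

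Of the 9 genes, 4 rose in the BRG1-labelled libraries (GADD45B, GADD45A, ZMAT3 and MDM2), 1 fell (PLK3), and CCNG1, PLK2, BTG2 and SESN1 did not pass an adjusted p of 0.05. Among all genes tested 44.6% passed, 21% as higher and 23.6% as lower, so that 5 calls among 9 genes lie close to the background of a comparison in which many genes differed. The groups did not overlap for 7 of the 9 genes, against 73.2% of all genes tested. The median log2 fold change of the 9 was 0.28 and that of all genes tested 0.02. The median absolute size was 0.33 against 0.44. With either BRG1-labelled library left out 2 of the 9 rose and 1 fell, and without control 1 it was 5 and 2. With scaling by library size alone 6 rose and 1 fell. A fit with 1 control left out takes its spread from the BRG1-labelled pair alone, so its calls leave out the difference between controls. Levels throughout are TMM-scaled CPM, and errors of group means are SDs over 2 libraries.

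**Figure D1:**
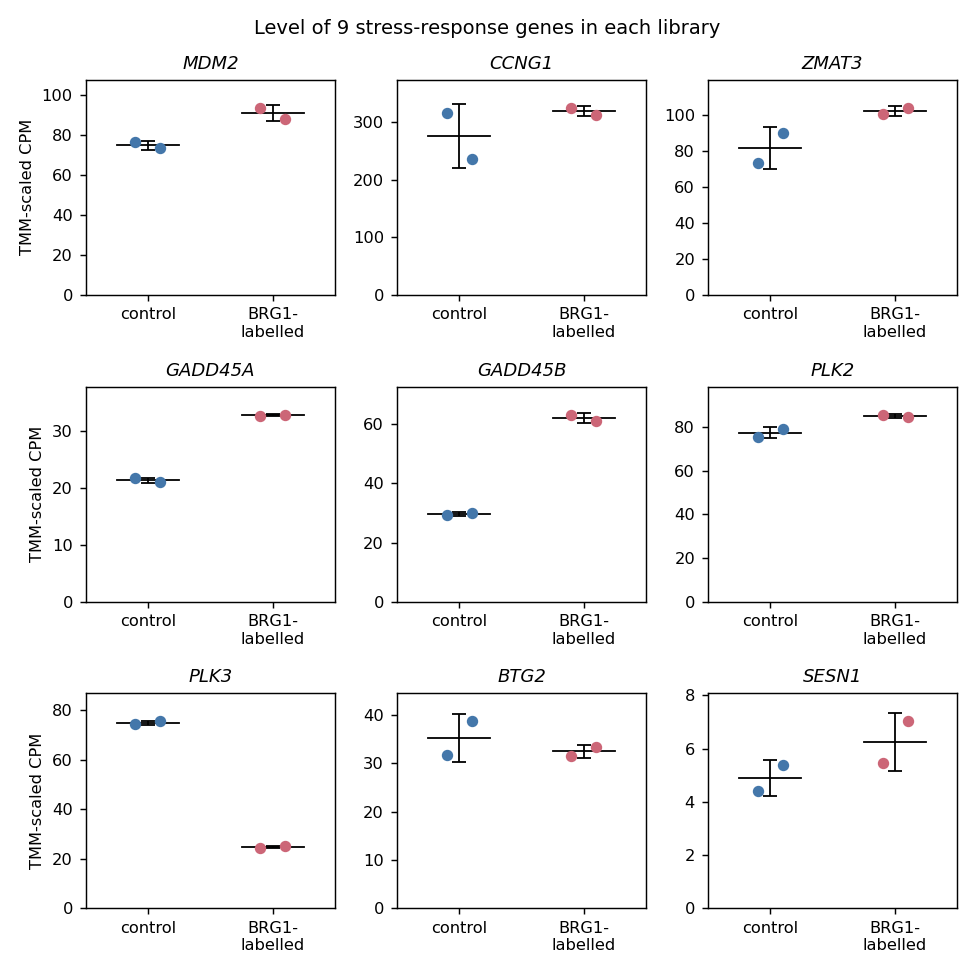
Level of each of the 9 genes in TMM-scaled CPM (vertical axes, each from 0) in the 2 control libraries (blue) and the 2 BRG1-labelled libraries (red). Points are libraries, long horizontal lines group means and error bars SDs. PLK3 lies at 74.3 and 75.5 CPM in controls and at 24.5 and 25.1 in the other group, GADD45B is 2.10 times as high, and the groups overlap for CCNG1 and BTG2.

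MDM2 (ENSSSCG00000000488; Sscrofa11.1 chromosome 5, 33105717 to 33137602), the ubiquitin ligase that marks proteins for degradation, stood at 76.7 and 73.5 CPM in controls 1 and 2 and at 93.8 and 88.1 CPM in BRG1-labelled libraries 1 and 2. Both BRG1-labelled libraries were above both controls. The rise was 1.21-fold (95% interval 1.04 to 1.41, log2 fold change 0.28 ± 0.10, SE, adjusted p = 0.0363 in the edgeR quasi-likelihood test). Scaling by library size alone gave 0.50. The call was lost in DESeq2 (adjusted p = 0.0508), without a filter on low counts (adjusted p = 0.0864) and with the span trend removed (adjusted p = 0.0698). It was lost too without BRG1-labelled library 1 (adjusted p = 0.398) or 2 (adjusted p = 0.224).

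CCNG1 (ENSSSCG00000017024; chromosome 16, 60349255 to 60356737) encodes cyclin G1, which binds a protein phosphatase and MDM2 and is induced by DNA damage in many cell types. Its level was 316 CPM in control 1, 237 in control 2, and 325 and 313 in the BRG1-labelled libraries. Control 2 was low and control 1 lay within the range of the other group, so that the groups overlapped. The log2 fold change of 0.21 ± 0.13 did not pass (adjusted p = 0.196, edgeR, 95% interval -0.06 to 0.48, or 0.96-fold to 1.39-fold). Which control was used decided the value: it was 0.42 without control 1 and 0.00 without control 2. CCNG1 passed as higher with scaling by library size alone (0.43, adjusted p = 0.0105, edgeR) and with the span trend removed (0.41, adjusted p = 0.00443).

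ZMAT3 (ENSSSCG00000033860; chromosome 13, 117113272 to 117147639), a zinc finger protein that binds RNA, had 73.0 and 89.8 CPM in controls 1 and 2 and 100 and 104 in the BRG1-labelled libraries. Control 2 lay closer to the BRG1-labelled libraries than to control 1, but no library of one group fell within the range of the other. ZMAT3 rose 1.25-fold (95% interval 1.06 to 1.48, log2 fold change 0.33 ± 0.11, adjusted p = 0.0286, edgeR). This call did not hold without BRG1-labelled library 1 (adjusted p = 0.169) or 2 (adjusted p = 0.265), nor with the span trend removed (0.26, adjusted p = 0.0562), and the value was 0.18 without control 1, 0.47 without control 2 and 0.55 when libraries were scaled by size alone.

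The GADD45 proteins are small acidic proteins without enzyme activity that bind PCNA, CDK1 and the kinase MAP3K4, upstream of p38 and JNK. GADD45A (ENSSSCG00000037066; chromosome 6, 144940702 to 144944089), the family member best known for its induction by DNA damage, had 21.7 and 21.1 CPM in controls and 32.8 and 33.0 in the BRG1-labelled libraries. Replicates lay within 1 CPM of each other and the groups were well apart. The rise was 1.53-fold (95% interval 1.27 to 1.85, log2 fold change 0.62 ± 0.12, adjusted p = 0.000983). GADD45B (ENSSSCG00000022689; chromosome 2, 76107928 to 76111458), which is better known as a gene induced by NF-kappaB and TGF-beta, had 29.2 and 30.2 CPM in controls and 63.3 and 61.1 in the BRG1-labelled libraries. This was the largest rise among the 9 genes, 2.10-fold (95% interval 1.78 to 2.46, log2 fold change 1.07 ± 0.11, adjusted p = 1.84e-06), and 89.0% of all genes tested had a lower value. Both GADD45 calls held under all 14 alternatives, with log2 fold changes from 0.58 to 0.93 for GADD45A and from 1.04 to 1.37 for GADD45B. There were 1.34 and 1.43 GADD45B reads per GADD45A read in controls and 1.93 and 1.85 in the BRG1-labelled libraries, so that GADD45B gained on GADD45A in both of the latter. Such a ratio within a library needs no scaling between libraries, and an exact permutation test of 2 against 2 cannot go below p = 0.333. Both genes are short, 3.39 kb and 3.53 kb of genome, and in the decile of genes with the shortest spans (to 5.14 kb) the median log2 fold change was -0.35. The highest values of both genes were those with the span trend removed.

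PLK2 and PLK3 are polo-like kinases which, unlike PLK1, are not needed for mitosis and are induced by stress and by growth factors. PLK3 (ENSSSCG00000003928; chromosome 6, 166528760 to 166533734), which takes part in checkpoint responses, had 74.3 and 75.5 CPM in controls and 24.5 and 25.1 in the BRG1-labelled libraries. Both BRG1-labelled libraries stood far below the controls. The fall was 3.02-fold (log2 fold change -1.59 ± 0.11, 95% interval -1.83 to -1.36, adjusted p = 2.82e-08, edgeR), and only 2.96% of all genes tested had a lower value. It held under all 14 alternatives (-1.62 to -1.35). PLK3 lies in the same decile of span (4.97 kb), and in RefSeq its locus shares 96 bases with TCTEX1D4, while the strand setting of the counting is not stated.

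PLK2 (ENSSSCG00000016925; chromosome 16, 37299116 to 37305114), which has roles in centriole duplication and synapses, stood at 75.7 and 79.2 CPM in controls and at 85.8 and 84.4 in the BRG1-labelled libraries. The groups did not overlap, but the log2 fold change of 0.14 ± 0.10 did not pass (adjusted p = 0.285, 95% interval -0.08 to 0.35, or 0.95-fold to 1.27-fold). It passed as higher with scaling by library size alone (0.36, adjusted p = 0.00856) and with the span trend removed (0.35, adjusted p = 0.00599). In the ratio of the kinases, which does not depend on scaling, there were 1.02 and 1.05 PLK2 reads per PLK3 read in controls and 3.50 and 3.36 in the BRG1-labelled libraries. The mean ratio was 3.32 times that of controls, and the intervals of the log2 fold changes of PLK2 and PLK3 do not overlap.

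BTG2 (ENSSSCG00000055218; chromosome 9, 64033853 to 64037795), an antiproliferative protein that recruits the CCR4-NOT deadenylase to mRNAs, had 31.8 and 38.7 CPM in controls and 31.6 and 33.5 in the BRG1-labelled libraries. The groups overlapped, with the highest and the second lowest value both among controls. Its log2 fold change was -0.11 ± 0.13 (adjusted p = 0.498, 95% interval -0.39 to 0.16), and its direction turned with scaling by library size alone (0.11), with the span trend removed (0.17) and without control 2 (0.02). Without control 1 its value was -0.26.

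SESN1 (ENSSSCG00000004390; chromosome 1, 75056731 to 75170374) encodes a sestrin, one of the stress proteins that restrain mTORC1 by binding the GATOR2 complex. It was counted with only 155 and 173 reads in controls and 215 and 263 in the BRG1-labelled libraries, or 4.43, 5.39, 5.48 and 7.02 CPM. Control 2 lay just below BRG1-labelled library 1. The log2 fold change of 0.35 ± 0.23 did not pass (adjusted p = 0.231), and its 95% interval from -0.14 to 0.84, or 0.91-fold to 1.79-fold, is the widest among the 9 genes. The value was 0.21 without control 1, 0.52 and 0.16 without BRG1-labelled libraries 1 and 2 in turn, 0.57 with scaling by library size alone and 0.10 with the span trend removed, and it passed in none of these. In RefSeq 25012 bases of the SESN1 locus are shared with ARMC2, so that reads of these genes may have been set aside or misplaced.

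**Figure D2:**
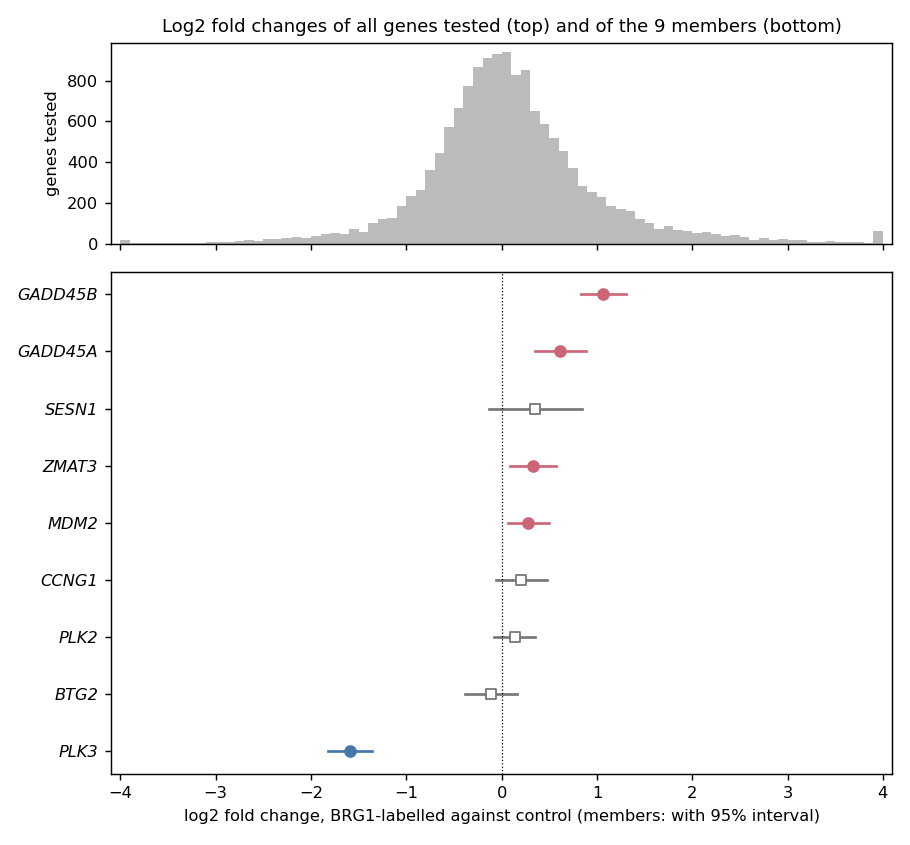
Log2 fold change of the BRG1-labelled libraries against controls: the histogram (top) counts all 14617 genes tested, with values beyond 4 in either direction placed in the outermost bars, and the lower panel gives the 9 genes with 95% intervals. Filled red circles passed the test as higher, the filled blue circle as lower and open grey squares did not pass. PLK3 at -1.59 and GADD45B at 1.07 lie apart from the other 7 genes, which lie between -0.11 and 0.62.

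Sestrin genes changed in both directions, and so did BTG and TOB genes. Of 18 paralogs listed 14 were tested, and 3 rose and 4 fell (median log2 fold change -0.16), or 5 and 4 with scaling by library size alone (median 0.06) and 2 rises with either BRG1-labelled library left out. SESN3 rose from 15.6 ± 1.43 to 47.0 ± 3.89 CPM (log2 fold change 1.60 ± 0.13, adjusted p = 2.07e-07) and SESN2, a sestrin that ATF4 induces, fell from 86.4 ± 3.51 to 58.4 ± 6.74 (-0.56 ± 0.11, adjusted p = 0.000728). SESN3 reads per SESN2 read were 0.173 and 0.186 in controls and 0.787 and 0.824 in the BRG1-labelled libraries, a ratio chosen after the values were seen. The SESN2 call was lost without BRG1-labelled library 2 (adjusted p = 0.0715), and its value was -0.34 with library size alone.

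BTG1, close kin of BTG2, fell from 444 ± 46.4 to 285 ± 0.622 CPM (-0.64 ± 0.11) and BTG3 from 67.1 ± 11.0 to 34.8 ± 0.143 (-0.95 ± 0.12), while TOB1 of the same family rose by 0.30 ± 0.10 on the log2 scale and TOB2 had 0.22 ± 0.10 and did not pass (adjusted p = 0.026 and 0.108, edgeR). The TOB1 call was lost with no filter on low counts (adjusted p = 0.0576) and without BRG1-labelled library 1 (adjusted p = 0.312) or 2 (adjusted p = 0.218). TOB2 passed as higher with library size alone (0.44), with upper quartile scaling (0.32), without control 2 (0.28) and with the span trend removed (0.36). Library size alone and the removed span trend gave 0.52 and 0.61 for TOB1, and -0.42 and -0.29 for BTG1. MDM4, the relative of MDM2 that pairs with it, rose from 55.5 ± 13.0 to 80.3 ± 1.69 CPM (0.53 ± 0.13, adjusted p = 0.00471), with controls 1 and 2 at 46.3 and 64.7. Its log2 fold change was 0.30 without control 1 and 0.78 without control 2, and it passed in both. GADD45G did not pass (-0.26 ± 0.16, adjusted p = 0.211, or 0.17 with the span trend removed). Neither did PLK1 (-0.49 ± 0.22, adjusted p = 0.0897), PLK4 (0.33 ± 0.34, adjusted p = 0.466), CCNG2 (0.28 ± 0.14, adjusted p = 0.110), CCNI (-0.10 ± 0.10, adjusted p = 0.438) or ZMAT2 (-0.22 ± 0.12, adjusted p = 0.142). Of these, CCNG2 passed as higher with library size alone (0.51), with upper quartile scaling (0.39), without control 1 (0.40) and with the span trend removed (0.45). PLK1 stood at -0.60 without control 1, and CCNI and ZMAT2 at -0.20 and -0.38 without control 2. With library size alone CCNI turned to 0.12 and ZMAT2 to 0.00. ZMAT5, a zinc finger protein of the minor spliceosome, fell by 0.72 ± 0.17 on the log2 scale (adjusted p = 0.00348), and by 0.46 without control 1.

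**Figure D3:**
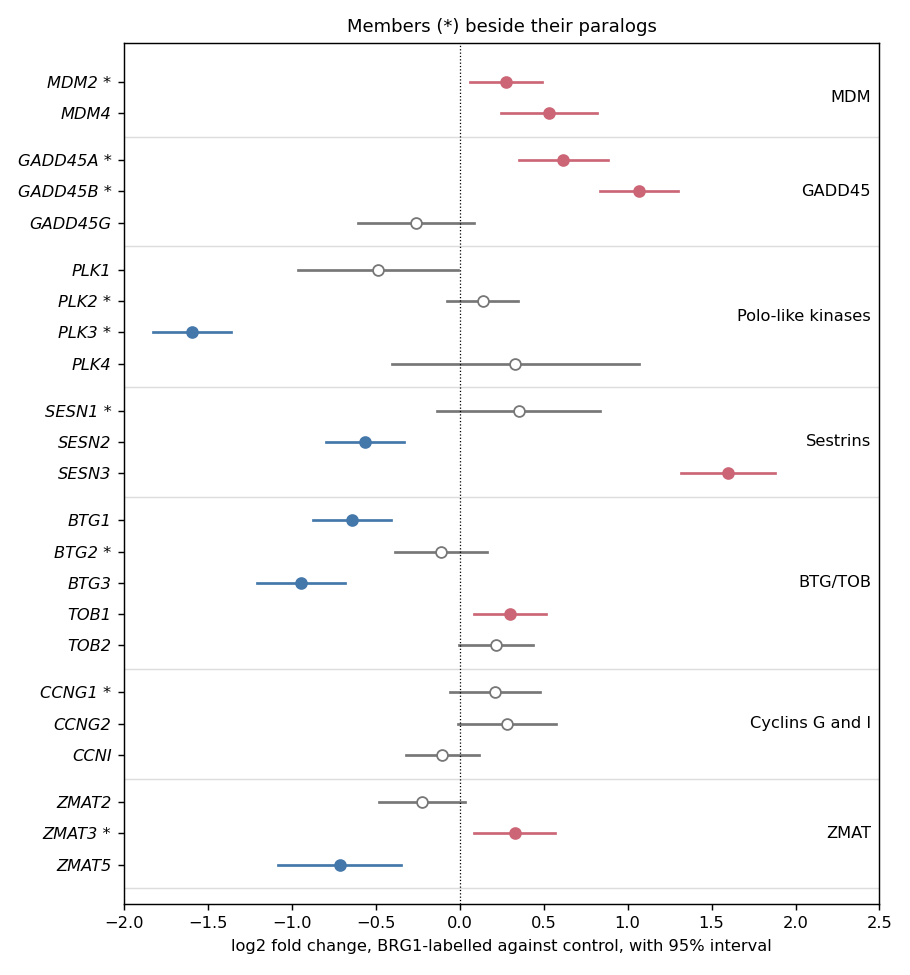
Log2 fold change with 95% interval for the 9 genes (asterisks) and their tested paralogs, by family. Filled red and blue circles passed the test as higher and lower, and open circles did not pass. Sestrins spread from -0.56 (SESN2) to 1.60 (SESN3), and the polo-like kinases from -1.59 (PLK3) to 0.33 (PLK4, with a wide interval).

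Among 18 regulators of the damage response, 3 genes rose and 4 fell (median 0.15). The kinases ATM and ATR, which signal DNA breaks and stalled replication, rose by 0.80 ± 0.11 and 0.63 ± 0.14 on the log2 scale (adjusted p = 5.00e-05 and 0.00208, edgeR), ATM from 32.1 ± 2.85 to 55.8 ± 1.09 CPM. With the span trend removed their values were 0.51 and 0.38, and both passed. CDKN2A, the locus of the MDM2 inhibitor ARF and of p16, fell from 22.3 ± 2.60 to 10.4 ± 1.32 CPM (-1.10 ± 0.16, adjusted p = 4.79e-05). RPL11 and RPL5, ribosomal proteins that can bind MDM2, fell by 0.51 ± 0.12 and 0.33 ± 0.12, and the acetyltransferase gene KAT5 by 0.37 ± 0.13. None of these last 3 calls held with scaling by library size alone (adjusted p = 0.0663, 0.478 and 0.371), with the span trend removed, or without BRG1-labelled library 1 or 2. Without control 1 RPL11 stood at -0.33 and RPL5 at -0.17. The remaining 11 regulators did not pass. Among them were USP7, which removes ubiquitin from MDM2 (0.22 ± 0.10, adjusted p = 0.107), and the phosphatase gene PPM1D (-0.26 ± 0.15, adjusted p = 0.191). USP7 passed as higher with library size alone (0.44), with upper quartile scaling (0.32) and without control 2 (0.29). The balance of calls in this list depended on the scaling, but its median stayed positive under each scaling. With library size alone 8 rose and 1 fell, with a median of 0.37 against 0.24 for all genes tested. With the span trend removed 3 rose and 0 fell. In that analysis the median of all genes tested was -0.052, and that of the list turned to -0.048, close to it. The counts were 7 and 4 without control 2, 5 and 5 without control 1, where the median turned to -0.04, and 3 and 1 with either BRG1-labelled library left out.

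Among other damage-induced genes falls outnumbered rises. For comparison, 44.6% of all genes tested passed, 21% as higher and 23.6% as lower. Of 22 genes in arrest, repair and metabolism 2 rose and 7 fell (median -0.09), and of 9 tested cell death genes 1 rose and 4 fell (median -0.21). GDF15, a secreted stress cytokine, fell from 51.9 ± 2.48 to 10.3 ± 0.250 CPM (-2.33 ± 0.13, adjusted p = 3.39e-09), SUSD6 from 111 ± 5.57 to 55.4 ± 1.12, and DRAM1, which acts in autophagy, from 140.5 ± 1.29 to 75.5 ± 0.145. Of the 2 rises, 1 kept its call under all 14 alternatives and is not named here. The other was POLK, a translesion polymerase, which rose by 0.42 ± 0.13, and its call was lost without BRG1-labelled library 1 or 2 (adjusted p = 0.184 and 0.109) and with the span trend removed (adjusted p = 0.0953). CDKN1A, the p21 inhibitor of cyclin-dependent kinases and the best known arrest gene of this response, named here after its value was seen, had 669 and 601 CPM in controls and 545 and 552 in the BRG1-labelled libraries (-0.21 ± 0.11, adjusted p = 0.124, edgeR), or 0.01 on the log2 scale with library size alone. CDKN1A stood at -0.14 without control 1 and at -0.30 without control 2.

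In the cell death list PMAIP1 and BAX, which act on the outer mitochondrial membrane, fell by 1.07 ± 0.12 and 0.76 ± 0.11 on the log2 scale (adjusted p = 6.13e-06 and 5.51e-05), and APAF1, the core of the apoptosome, rose by 0.54 ± 0.10 (adjusted p = 0.000691), or by 0.33 with the span trend removed. With scaling by library size alone the counts were 6 higher and 6 lower in the arrest, repair and metabolism list and 1 and 2 in the cell death list, with medians of 0.14 and 0.02. In that scaling the median of all genes tested stood at 0.24 and that of the 9 genes at 0.50, and with upper quartile scaling at 0.12 and 0.38. A change of scaling moves all genes by nearly the same amount, so it leaves the order of these medians as it was. With the span trend removed, the median was -0.083 for arrest, repair and metabolism and -0.056 for cell death. That of all genes tested was then -0.052, close to the cell death list, and that of the 9 genes 0.257. The first list held 1 rise with either BRG1-labelled library left out, 5 rises without control 1 and 4 without control 2, and the second held 2 falls with either BRG1-labelled library left out and 2 rises without control 1.

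Of 12 genes repressed through p21 and the DREAM complex 0 rose in edgeR or DESeq2, and 1 fell, MCM5, a subunit of the replicative helicase (-1.19 ± 0.15, adjusted p = 1.70e-05). MCM5 had a mean of 24.1 CPM in controls, while the other genes of this list had group means between 1.08 and 7.07 CPM. At such low levels a change can be missed. Falls numbered 2 without control 1 and 3 without control 2, and at an unadjusted p below 0.05 there were 0 rises and 3 falls. In the p38 and JNK cascade, into which GADD45 proteins feed, 2 of 12 genes rose and 6 fell (median -0.32), with 0 rises in DESeq2 or with either BRG1-labelled library left out, and 4 rises and 4 falls with library size alone. Falls numbered 4 without BRG1-labelled library 1 and 3 without 2. The phosphatases DUSP1 and DUSP10, which switch these kinases off, fell by 0.64 ± 0.10 and 1.10 ± 0.21 on the log2 scale. MAP2K3, a p38-activating kinase, fell by 0.53 ± 0.10, while MAPK14, which is p38 alpha, rose by 0.26 ± 0.10 (adjusted p = 0.0493, edgeR). The other rise, of the p38-activating kinase MAP2K6 (2.46 ± 0.97, adjusted p = 0.0488, edgeR), rests on few reads. It had 1 and 6 in controls and 33 and 13 in the BRG1-labelled libraries. With library size alone DUSP1 stood at -0.41 and MAP2K3 at -0.30, and with the span trend removed DUSP1 stood at -0.32. The MAPK14 call was lost in DESeq2 (adjusted p = 0.0750), in edgeR with the size factors of DESeq2 (adjusted p = 0.0558), with no filter on low counts (adjusted p = 0.122), with the span trend removed (adjusted p = 0.453) and without BRG1-labelled library 1 or 2 (adjusted p = 0.441 and 0.260). The MAP2K3 call was lost without BRG1-labelled library 2 (adjusted p = 0.0913).

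Downstream of sestrins, 2 of 18 genes of AMPK, the GATOR and TSC complexes and mTORC1 rose and 5 fell (median -0.003), or 5 and 1 with library size alone. Without control 2 there were 5 rises and 7 falls, without control 1 there was 1 rise, and without BRG1-labelled libraries 1 and 2 in turn 0 rises and 2 falls and 1 of each. SEC13, a GATOR2 subunit that also coats vesicles and lines nuclear pores, fell from 318 ± 23.5 to 161 ± 5.68 CPM (-0.98 ± 0.10, adjusted p = 2.82e-06), and PRKAB2, an AMPK subunit, rose by 0.65 ± 0.19 (adjusted p = 0.0105), though not without BRG1-labelled library 1 (adjusted p = 0.131). Of 15 partners of BTG2 and cyclin G1, 3 rose and 7 fell (median -0.20), or 5 and 5 with library size alone (median 0.02), and the rises numbered 1 without BRG1-labelled library 1. PRMT1, an arginine methyltransferase that binds BTG proteins, fell from 369.8 ± 7.43 to 144 ± 1.23 CPM (-1.37 ± 0.10, adjusted p = 6.87e-08). The deadenylase gene CNOT8 fell by 0.88 ± 0.12 and PPP2R5A, a phosphatase subunit of the family that binds cyclin G, by 0.72 ± 0.10, while CNOT6, another deadenylase, rose by 0.94 ± 0.16.

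Stress programmes that share inducers with these genes were set beside them. Of 12 genes, ATF4 and its targets, 0 rose and 11 fell (median -0.92, with 0 rises at an unadjusted p below 0.05 and 0 in DESeq2). ATF4 itself was among the falls (-0.85 ± 0.11). CHAC1 stood at -2.01 ± 0.11, TRIB3 at -1.79 ± 0.10 and DDIT4, an inhibitor of mTORC1 that DNA damage also induces, at -1.51 ± 0.11. GADD45A, which ATF4 can induce as well, rose. Among 14 immediate early genes 2 rose and 6 fell (median -0.27), or 3 and 3 with the span trend removed. NR4A1 rose from 75.5 ± 5.24 to 194 ± 4.78 CPM (1.36 ± 0.10) and FOS from 67.6 ± 18.3 to 124 ± 18.3 (0.88 ± 0.15), while IER3 fell by 1.41 ± 0.12 and ATF3 by 1.28 ± 0.10. Of the 4 genes studied here that are also immediate early genes, GADD45B rose, PLK3 fell, and PLK2 and BTG2 did not pass.

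**Figure D4:**
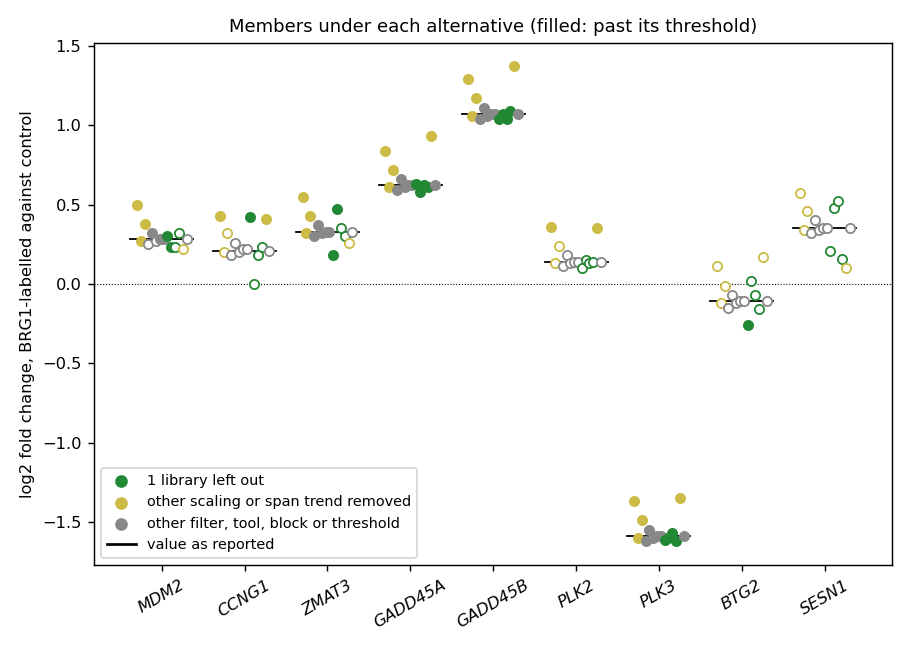
Log2 fold change (vertical axis) of each of the 9 genes under 14 alternative analyses. Green points leave out 1 library, yellow points use another scaling or remove the span trend, grey points use another filter, tool, threshold or the replicate block, filled points passed their threshold, and black lines mark the reported value. GADD45A, GADD45B and PLK3 passed throughout, MDM2 and ZMAT3 passed under some alternatives, and CCNG1 ran from 0.00 to 0.43.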

How the data were processed

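Each deposited file holds the authors' raw read counts of 1 library by Ensembl gene, in whole numbers. The submitters' processing notes list STAR, Cufflinks, SAMtools, FastQC, edgeR and DESeq2 and the build Sscrofa11.1, while counter, strand setting and annotation release are not given in the sources used here. RNA was trizol-extracted, per the labels' protocols. The last 5 entries of each file name no gene and entered neither library sizes nor tests. They held reads outside genes (6.11% to 10.5% of listed reads), reads on several genes (1.90% to 2.33%) and reads aligned to several places (1.42% to 1.80%).

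All genes were fitted together in R 4.3.3 with edgeR 4.0.16: filterByExpr (minimum count 10, minimum total 15), TMM scaling (factors 0.918, 0.931, 1.08 and 1.08) and the quasi-likelihood F test, adjusted by Benjamini-Hochberg over 14617 genes at 0.05. Fold changes carry a prior count of 0.125; the SE is the unshrunk log2 fold change over the square root of F, and intervals are 95%. Counts were also simulated for 14617 genes, with 1 dispersion common to all genes and no difference in composition between groups. On these the test called 76 of 100 genes set to a 2-fold change, 96 of 100 set to a 4-fold change, and 8 of 14417 left unchanged. In the data 44.6% of genes tested passed, so these rates need not hold for this comparison. Alternatives were other scalings and filters, DESeq2 1.42.0, limma-voom (limma 3.58.1), the replicate number as a block, a threshold of 0.01, each library left out, and a loess trend on gene span (RefSeq table of Sscrofa11.1, by symbol, 77.4% of genes tested) removed per library. Coordinates are from that table. Named genes are the 9 members, SMARCA4, regulators and paralogs, and up to 3 genes per direction and list with the smallest adjusted p among those past the threshold, not all of which are printed. CDKN1A, ATF4 and single cell type markers are named besides. Another regulator gene was left out of its list and is not reported here. The members and lists were chosen with earlier results of these data known. The lists share genes, so their counts are not separate. SESN2 is counted as a fall among paralogs, arrest, repair and metabolism genes and ATF4 targets. MDM4, PLK1, PPM1D, PRKAB1, ATF3 and DUSP1 are shared between lists as well.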

Additional observations from a re-analysis of the deposited data

How the results depend on the processing

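GADD45A, GADD45B and PLK3 kept their direction and call under every one of the 14 alternatives. MDM2 and ZMAT3 kept their direction, but MDM2 lost its call with no filter (0.25), in DESeq2 (0.27), with the span trend removed (0.22) and at a threshold of 0.01 (0.28), and ZMAT3 with the span trend removed (0.26) and at 0.01 (0.33). PLK2 and CCNG1 gained one with scaling by library size alone (0.36 and 0.43) and with the span trend removed (0.35 and 0.41). BTG2 turned to 0.11 and 0.17 in these analyses. With 1 library left out, values ran from 0.23 to 0.32 for MDM2, 0.18 to 0.47 for ZMAT3, 0.00 to 0.42 for CCNG1, 0.16 to 0.52 for SESN1 and -0.26 to 0.02 for BTG2. A group left with 1 library is assumed to vary like the other.

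The 9 genes held 4 rises and 1 fall as reported, 6 rises with library size alone, 3 with no filter or in DESeq2, 2 at a threshold of 0.01, and 2 to 5 rises and 1 to 2 falls with 1 library left out. Among all genes tested 4819 were higher and 2140 lower with library size alone, 3790 and 2769 with upper quartile scaling, against 3068 and 3444 as reported; leaving out 1 library gave 1908 to 3673 and 2177 to 4321. In the other lists together the rises numbered 35 with library size alone, 29 with upper quartile scaling, 10 at 0.01 and 9 to 28 with 1 library left out, and the falls 34 with library size alone and 32 to 63 with 1 library left out. Over 699 comparisons of other named genes with an alternative, 38 lost a call, 18 gained one and 9 turned direction, the last being SMARCA4 (0.18 with library size alone, 0.06 with upper quartile scaling, 0.00 at 1 CPM in all libraries, -0.15 to 0.05 with 1 control left out), CDKN1A (0.01 with library size alone), GADD45G (0.17 with the span trend removed), CCNI (0.12 with library size alone, 0.00 with upper quartile scaling) and ZMAT2 (0.00 with library size alone). Beyond what follows from fewer libraries or a stricter threshold, the cause was not tested.

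With the replicate number as a block, 3189 genes were higher and 3505 lower, and the 9 genes kept 4 rises and 1 fall, with GADD45B at 1.07 and PLK3 at -1.59. Of other named genes RPL5 (-0.33, adjusted p = 0.0533) and MAPK14 (0.26, adjusted p = 0.0573) lost their calls under the block. The numbers are not known to pair cultures: the correlation of replicate 1 minus replicate 2 between the groups, across genes, was -0.04. Depth limits SESN1, counted with 155 to 263 reads.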
